A study of Triticum aestivum with 24 samples.

Results

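Families miR399 and miR395 were followed in the small RNA of wheat leaves through heat stress and recovery. They held 4 of the annotated miRNA tags in the deposited table, 1 tag of miR399 and 3 tags of miR395, beside 198 tags of other families. The members were chosen by the family number in the tag name. The tags of the table itself had been selected on a measured value, 10 or more RPM (reads per 1000000) in some library, so the highest value of a weak tag is partly fixed by that selection and is given here as a description. The study applied that limit before annotation, hence not to the total of miRNA reads that the RPM values below are relative to. The study used leaf tissue of hexaploid bread wheat (Triticum aestivum) cv Chinese Spring. Heat stress of 37 °C began at the boot stage, when the spike is still enclosed in the flag leaf sheath, and lasted 5 days, while control plants of the same cultivar received no heat stress. Leaves were taken at 0, 1 and 4 DAT, where DAT counts the days since the treatment ended, which gave 6 groups of 4 libraries (n = 4), each from a pool of 18 plants. There were 8 such pools, 4 per treatment, and each was sampled again on the later days, so its 3 libraries are not independent. A library is the mean of its pool and shows nothing of the spread between plants, and a table of miRNA tags has no marker with which to check the tissue.

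MicroRNAs are short RNAs cut from the stem of a hairpin precursor, and they guide the cleavage of transcripts with complementary sites. In Arabidopsis, miR399 accumulates when phosphate is short, travels in the phloem from shoot to root and lowers PHO2, a ubiquitin-conjugating enzyme that limits phosphate uptake and transport. In Arabidopsis, miR395 accumulates when sulfate is short and lowers ATP sulfurylases, the enzymes of the first step of sulfate assimilation, and a low-affinity sulfate transporter.

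The tag sequences are shown because they tell which reads were counted apart. Capitals mark the seed, bases 2 to 8 from the 5′ end.
miR399-18-3p: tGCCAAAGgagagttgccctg
miR395-18-3p: tGAAGTGTttgggggaactc
miR395-41-3p: tGAAGTGTttgggggaact
miR395-7-3p: gAAGTGTTtgggggaact
The tag of miR399 was 21 nt long and was the only tag of the table with its seed. The tags of miR395 were 20, 19 and 18 nt long and nested within each other. Tag miR395-41-3p held bases 1 to 19 of miR395-18-3p, and miR395-7-3p held bases 2 to 19. Tags miR395-18-3p and miR395-41-3p shared the seed GAAGTGT, which no other tag of the table had, and the seed of miR395-7-3p was moved by 1 base to AAGTGTT.

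The precursors are shown with the tag in capitals, because their sequences decide whether a read can be traced to a locus.
pre-miR399-18: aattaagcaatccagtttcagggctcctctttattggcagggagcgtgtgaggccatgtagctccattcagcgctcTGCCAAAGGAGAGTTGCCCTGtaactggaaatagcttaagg
pre-miR395-18: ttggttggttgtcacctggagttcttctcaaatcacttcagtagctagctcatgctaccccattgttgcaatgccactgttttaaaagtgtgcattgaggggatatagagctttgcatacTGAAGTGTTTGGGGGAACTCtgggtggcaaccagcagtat
pre-miR395-41: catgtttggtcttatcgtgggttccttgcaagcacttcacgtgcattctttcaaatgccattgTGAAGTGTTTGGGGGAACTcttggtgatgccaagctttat
pre-miR395-7: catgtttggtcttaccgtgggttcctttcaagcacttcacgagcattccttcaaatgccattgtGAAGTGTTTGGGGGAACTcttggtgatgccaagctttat
In the genome build IWGSC RefSeq v1.0, pre-miR399-18 lay on the minus strand at chr2B:596648887-596649003 and pre-miR395-18 on the minus strand at chr2D:613044409-613044568. The other 2 precursors of miR395 lay on the minus strand of chromosome 2A, pre-miR395-41 at chr2A:744773162-744773264 and pre-miR395-7 at chr2A:744772467-744772569, with 592 bases between them. No gene annotation of this build was used here, so the genes and introns around these loci are not given. Refolding gave minimum free energies of -59.7 kcal/mol for the 117 nt of pre-miR399-18, -86.9 for the 160 nt of pre-miR395-18, -50.2 for pre-miR395-41 and -53.8 for pre-miR395-7, both of 103 nt. Every tag lay on the 3p arm, with 18 of the 21 bases of miR399-18-3p and all bases of each miR395 tag paired in its own precursor.

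**Figure D1:**
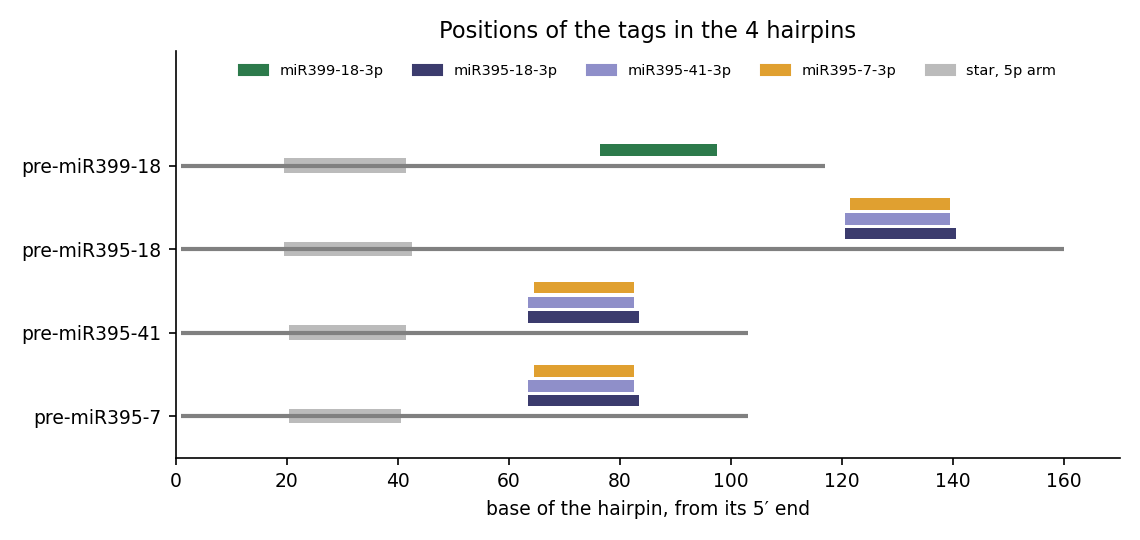
Map of the 4 precursors of miR399 and miR395, with the base counted from the 5′ end of each hairpin on the x axis, the tags found in it as coloured bars and the star sequence of the 5p arm in gray. All 3 tags of miR395 occur in each of the 3 miR395 precursors, and of the 4 precursors shown miR399-18-3p, at bases 77 to 97, occurs only in its own.

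The reads of miR395 cannot be assigned to a locus. Each of the 3 miR395 tags occurred without mismatch in all 3 miR395 precursors, and in no other of the 200 precursor entries listed by the study. These entries were counted by tag name, so a hairpin with several tags can stand among them more than once. The 2 precursors of chromosome 2A were identical at 99 of 103 bases (96.1%). Among the same 200 entries, miR399-18-3p occurred in its own precursor only, but the list named no other hairpin of miR399. The genome was not searched for further loci, so the reads of miR399-18-3p are not assigned to a locus either. The star sequences, the complementary strands of 20 to 23 nt on the 5p arm, were not among the counted tags.

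Sites for miR395 in the study's list of cleaved transcripts are shown to set the tags beside the enzyme they are known for. Capitals mark the bases that do not form a Watson-Crick pair with the tag.
ATP sulfurylase site of miR395-18-3p: gagttccTccaaGcacttca
HtrA-like protease site of miR395-18-3p: gagAtGccTTaGacacttca
The ATP sulfurylase site had the same letters in 3 transcripts, on chromosomes 5A, 5B and 5D, 1 for each subgenome. It formed 18 base pairs and 2 wobble pairs with the 20 bases of the tag, at tag positions 8 and 13 counted from the 5′ end, and had no mismatch. Tag miR395-41-3p met the same site with 17 base pairs and 2 wobble pairs. The site in the transcript of an HtrA-like serine protease, a class of protein quality control enzymes, on chromosome 5B formed 15 base pairs and 3 wobble pairs with 2 mismatches, and none of these 5 positions fell in the seed. The level of these transcripts was not measured in the files, and no site of miR399 was used here.

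Libraries held between 58501 and 300261 miRNA reads, 3421194 in all. Normalization with TMM factors, which correct library totals for differences in composition, gave the RPM values below, and the factors ran from 0.666 to 1.43. A count of 3 reads, the limit that a count of 0 allows, stood for 11.3 to 50.2 RPM depending on the library. Replicates are pools of separate plants. No pair of replicates of a group agreed within sampling noise, which shows only that none was a copy of another. Each library was counted as 1 sample, although the 3 libraries of a pool are not independent.

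The single tag of miR399 was higher in heat-stressed than in control leaves at 1 DAT, with a difference of similar size at 4 DAT that missed the threshold and none of that direction at 0 DAT. It gathered 1106 reads, was detected in 24 of 24 libraries and ranked 59 among all tags by mean level (329 RPM ± 182 SD over 24 libraries). At 0 DAT, control libraries held 227, 224, 422 and 219 RPM in replicates 1 to 4 and heat libraries 184, 191, 231 and 164 RPM. The groups overlapped, and 1 control library lay far above the other 7 libraries of that day. At 1 DAT, control libraries held 187, 198, 166 and 459 RPM and heat libraries 842, 356, 657 and 535 RPM. In control, 3 of the 4 libraries were below every heat library, and replicate 4 of the control overlapped with the lowest heat library. At 4 DAT, control libraries held 160, 199, 178 and 259 RPM and heat libraries 467, 483, 412 and 473 RPM. The groups did not overlap on that day, and the heat libraries lay within a 1.17-fold range.

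**Figure D2:**
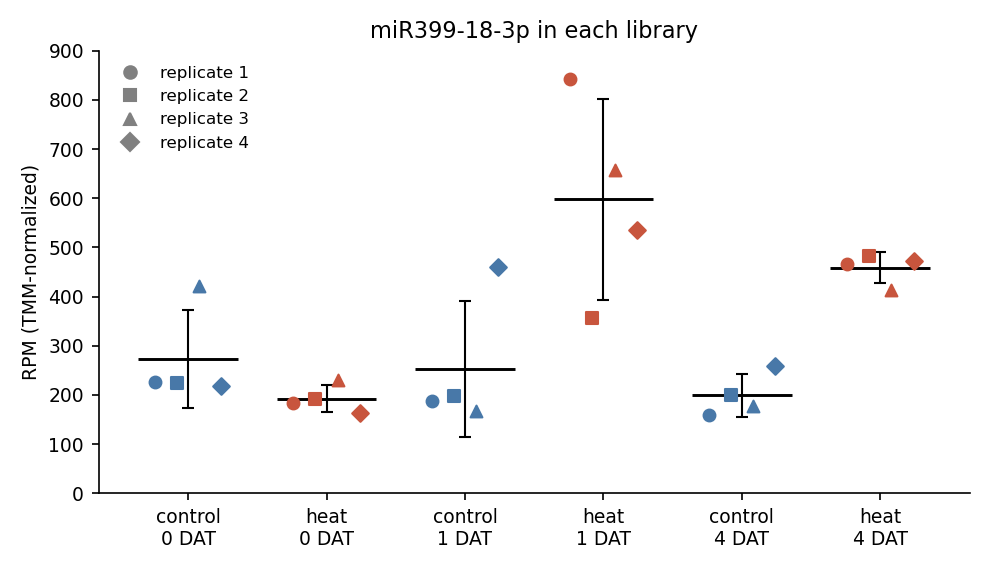
Level of miR399-18-3p in each of the 24 libraries, in TMM-normalized RPM on the y axis, by treatment and day, with control in blue, heat in red and a marker shape for each replicate number. Lines and bars are group means ± SD (n = 4), and the heat groups at 1 and 4 DAT, with means of 598 and 459 RPM, lie above the other 4 groups, with means between 192 and 273 RPM.

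Ordered by mean, heat at 1 DAT (598 RPM ± 205 SD, n = 4) came first, followed by heat at 4 DAT (459 ± 31.8), control at 0 DAT (273 ± 99.5), control at 1 DAT (253 ± 138), control at 4 DAT (199 ± 43.3) and heat at 0 DAT (192 ± 28.2). The ranges of each group and the next one in this order overlapped. Counting error alone was wide for 1 library, since the 28 reads behind 422 RPM in replicate 3 of control at 0 DAT, the library with the fewest reads, allow 280 to 610 RPM (95% Poisson interval), while the 57 reads behind 459 RPM in replicate 4 of control at 1 DAT allow 348 to 595 RPM. These intervals cover counting error only. In bulk leaf tissue a change in the cells that hold a miRNA and a change in the amount per cell cannot be told apart.

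Heat was compared with control on each day in a fit over all tags, with the false discovery rate (FDR) as the adjusted p and 0.05 as the threshold. At 0 DAT, where 17.3% of all tags passed, none of the 4 members did, and miR399-18-3p had a log2 fold change of -0.45 (95% interval -1.14 to 0.23, FDR = 0.446). A heat library was above a control library in 3 of 16 pairs. At 1 DAT, where 11.4% of all tags passed and 6.44% rose, miR399-18-3p was the only member to do so and rose by a log2 fold change of 1.23 (0.59 to 1.88, FDR = 0.0175), a 2.35-fold higher level (1.51 to 3.67), with the heat library above the control library in 15 of 16 pairs. The call was lost when only the 8 libraries of that day were fitted (1.27, FDR = 0.139), and when replicate 2 of control (1.13, FDR = 0.0521), replicate 3 of control (1.08, FDR = 0.0624) or replicate 1 of heat (1.02, FDR = 0.0529) was left out. Without replicate 4 of control, the library that stood apart, the value was 1.69 (FDR = 0.0011). The number of tags called over the whole table at 1 DAT, 23, also hung on single libraries, with 1 tag called without replicate 2 of control, 6 without replicate 3 of control, and 13, 13 and 12 without replicates 1, 3 and 4 of heat.

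At 4 DAT, 0% of all tags passed, against 26 at an unadjusted p under 0.05. The size of the difference in miR399-18-3p was near that of the day 1 value, with a log2 fold change of 1.19 (0.54 to 1.84, FDR = 0.0636, unadjusted p = 0.000865), and the heat library was above the control library in 16 of 16 pairs. Tools and settings divided on this call, which passed in 4 of 16 alternatives. It missed the threshold with a filter on low counts (FDR = 0.0536) and with DESeq2 size factors (FDR = 0.0633). It also missed with the replicate number as a block (FDR = 0.104) and with library totals (FDR = 0.395). The call was absent as well from each of the 8 fits that left out 1 library, with FDR between 0.0892 and 0.263. It passed with the likelihood ratio test, which the study used (1.19, FDR = 0.0264, with 3 tags called in all), with the Wald test of DESeq2 (1.23, FDR = 0.0326, with 4 tags called), with the libraries of that day alone (1.27, FDR = 0.0497) and with depth taken from all reads left after other RNA was removed (1.47, FDR = 0.0215).

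Within the heat-stressed plants, miR399-18-3p was lowest at 0 DAT. From 0 to 1 DAT, where 1.98% of all tags passed, it rose by a log2 fold change of 1.62 (0.95 to 2.28, FDR = 0.00387), or 3.06-fold, and the ranges of the groups did not overlap. This call held under each of the 16 alternatives tried, with FDR between 0.0003 and 0.028, among them the plant pool as a block (1.58, FDR = 0.013). The level was higher at 1 than at 0 DAT in 4 of 4 heat pools and in 1 of 4 control pools. From 0 to 4 DAT, where 5.45% of all tags passed, it rose by 1.24 (0.57 to 1.91, FDR = 0.0166), again with no overlap and in 4 of 4 heat pools. That call was lost without replicate 1 (1.22, FDR = 0.0524) or replicate 4 (1.17, FDR = 0.0647) of heat at 0 DAT, and with library totals in place of TMM factors (0.82, FDR = 0.128), a scaling that moved the median of all tags in this comparison from -0.02 to -0.45. Between 1 and 4 DAT in heat, the log2 fold change was -0.37 (-0.99 to 0.25, FDR = 0.876). In that comparison 0% of tags passed, with 17 at an unadjusted p under 0.05, 5 by the likelihood ratio test and 3 by DESeq2.

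In the control plants the level of miR399-18-3p had no call on any day. The log2 fold changes were -0.07 (-0.73 to 0.59) from 0 to 1 DAT, -0.40 (-1.07 to 0.26) from 0 to 4 DAT and -0.33 (-0.99 to 0.33) from 1 to 4 DAT, with FDR of 0.983 or more. In these 3 comparisons 0% of tags passed, with 9, 7 and 5 at an unadjusted p under 0.05 and none by the likelihood ratio test or DESeq2.

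The change of the heat effect itself was tested as an interaction. From 0 to 1 DAT, where 2.48% of all tags passed, the log2 ratio of heat to control of miR399-18-3p rose by 1.69 (0.75 to 2.63, FDR = 0.0492). This call lay at the threshold. It was lost with the plant pool as a block (1.73, FDR = 0.0969), with DESeq2 size factors (1.63, FDR = 0.0604), with library totals (1.63, FDR = 0.122), with a fit of the 4 groups compared (1.73, FDR = 0.0959) and in 12 of the 16 fits that left out 1 library, where the lowest value was 1.44. The 4 libraries that could be left out without losing it were replicate 4 of control at 0 DAT, replicate 4 of control at 1 DAT and replicates 2 and 4 of heat at 1 DAT. From 0 to 4 DAT, where 0.99% of all tags passed, the change was 1.64 (0.70 to 2.59, FDR = 0.0553). From 1 to 4 DAT it was -0.04 (-0.97 to 0.88, FDR = 0.993), with 0% of tags past the threshold, 5 at an unadjusted p under 0.05 and none by the other tools.

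The main tag of miR395 differed widely between libraries of the same group, and no difference between heat and control was detectable. Tag miR395-18-3p gathered 574 reads, was detected in 24 of 24 libraries and ranked 111 among all tags. At 0 DAT, control libraries held 140, 473, 362 and 28.1 RPM and heat libraries 83.7, 436, 37.3 and 10.9 RPM. At 1 DAT, control libraries held 21.9, 95.3, 753 and 8.06 RPM and heat libraries 159, 294, 70.3 and 24.0 RPM. At 4 DAT, control libraries held 61.4, 24.9, 53.7 and 199 RPM and heat libraries 103, 50.9, 28.8 and 432 RPM. Heat and control overlapped on every day, and the lowest and the highest of all 24 values, 93.5-fold apart, came from the same group, control at 1 DAT.

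**Figure D3:**
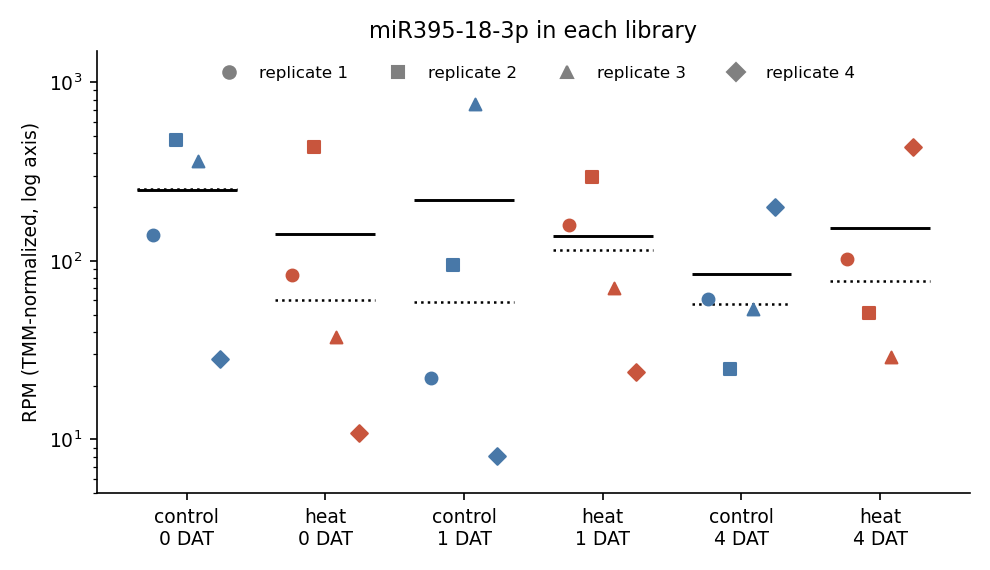
Level of miR395-18-3p in each of the 24 libraries, in TMM-normalized RPM on a log axis, by treatment and day, with control in blue, heat in red and a marker shape for each replicate number. Solid lines are group means and dotted lines group medians (n = 4), and libraries of a group spread from 8.02-fold to 93.5-fold, so that all 6 groups overlap.

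The order by mean was control at 0 DAT (251 RPM ± 203 SD, n = 4), control at 1 DAT (220 ± 358), heat at 4 DAT (154 ± 188), heat at 0 DAT (142 ± 198), heat at 1 DAT (137 ± 119) and control at 4 DAT (84.8 ± 78.0), and no neighbours in it differed beyond their spread. The log2 fold changes of heat against control were -0.74 (-2.90 to 1.43, FDR = 0.722) at 0 DAT, -0.54 (-2.64 to 1.56, FDR = 0.774) at 1 DAT and 0.90 (-1.25 to 3.06, FDR = 0.701) at 4 DAT. Each of these intervals includes both 0 and the 1.23 measured for miR399-18-3p at 1 DAT, so a change of that size was not detectable. Within heat, the value from 0 to 1 DAT was -0.03 (-2.23 to 2.17, FDR = 0.99) and from 0 to 4 DAT 0.20 (-1.94 to 2.35, FDR = 0.95). Under every alternative setting run, no miR395 tag passed the threshold in any of the 12 comparisons.

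Single libraries set the direction of the values at 1 and 4 DAT. At 1 DAT, leaving out replicate 3 of control turned the log2 fold change of miR395-18-3p from -0.54 to 1.86 (FDR = 0.444), and at 4 DAT leaving out replicate 4 of heat turned it from 0.90 to -0.52 (FDR = 0.869). At 0 DAT it stayed negative and moved to -2.59 (FDR = 0.229) without replicate 2 of heat and to -0.11 (FDR = 0.939) without replicate 2 of control. The ratio of heat to control means was 0.566, 0.623 and 1.81 at 0, 1 and 4 DAT, and the ratio of medians 0.241, 1.96 and 1.34.

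The spread of miR395-18-3p was measured as the SD of its log2 RPM within groups. It was 1.62, the second highest of all tags, for which the median was 0.50, and the highest of the 103 tags with a mean count of 15 to 60 reads, for which the median was 0.46. The same SD of miR399-18-3p was 0.41. A chi-square of the counts around the group means, divided by its 18 degrees of freedom, was 32.5 for miR395-18-3p, where counting error alone gives about 1, against a median of 3.17 for all tags and 4.60 for miR399-18-3p. The biological coefficient of variation fitted by edgeR was 0.99 for miR395-18-3p and 0.29 for miR399-18-3p.

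The top library of each of the 6 groups held 420 of the 574 reads (73.2%) of miR395-18-3p. These were replicate 2 of control and of heat at 0 DAT, replicate 3 of control and replicate 2 of heat at 1 DAT, and replicate 4 of both treatments at 4 DAT. Heat replicate 2 was thus the top library of its treatment at 0 DAT (436 RPM) and 1 DAT (294 RPM) but held 50.9 RPM at 4 DAT, and heat replicate 4 went from 10.9 and 24.0 RPM to 432 RPM from the same plants. In 5 of 6 groups the top library also had the highest TMM factor of its group, and in 2 of 6 the lowest share of miR166, the most abundant family. The part of library composition in this spread was not tested.

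**Figure D4:**
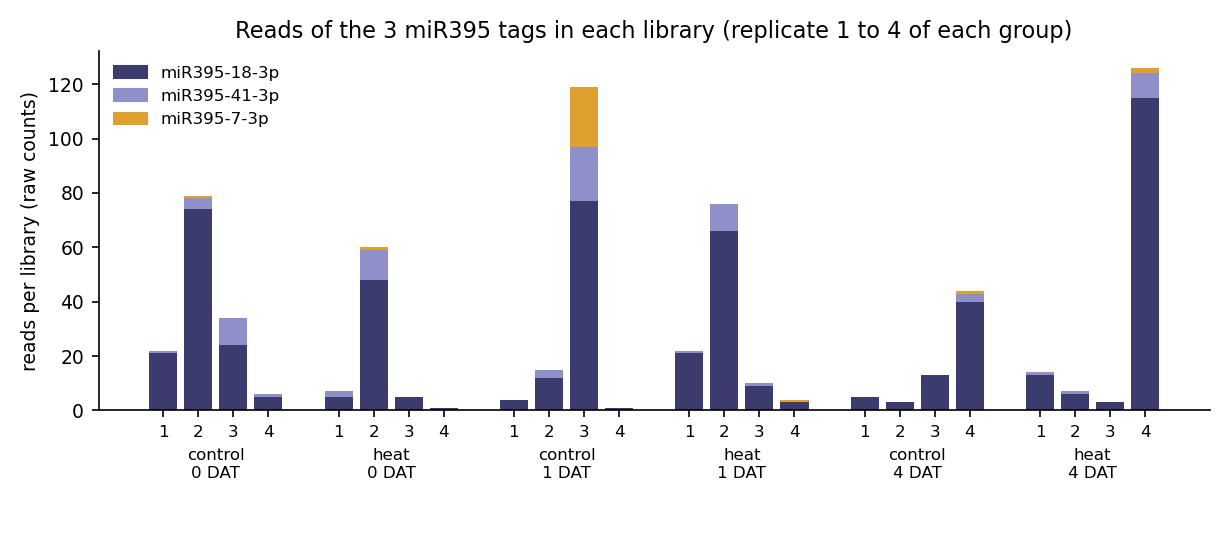
Raw reads of the 3 miR395 tags in each of the 24 libraries as stacked bars, with replicates 1 to 4 of each group on the x axis. Replicate 3 of control at 1 DAT stands out by its 22 reads of the shortest tag, miR395-7-3p, of 28 reads in all libraries.

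The shorter tags of miR395 were rare. Tag miR395-41-3p, which lacks the last base of miR395-18-3p, gathered 78 reads in 15 of 24 libraries and ranked last but 1. It had 20 reads (196 RPM) in replicate 3 of control at 1 DAT, 11 reads in replicate 2 of heat at 0 DAT, and 10 reads each in replicate 3 of control at 0 DAT (151 RPM) and replicate 2 of heat at 1 DAT. The other 20 libraries held 9 reads or fewer, 9 of them none. Tag miR395-7-3p, which lacks a base at each end, ranked last with 28 reads in 6 libraries, of which 22 (78.6%, or 215 RPM) were in replicate 3 of control at 1 DAT. The other 5 libraries held 1 or 2 reads, which lie below the limit that a count of 0 allows. The log2 fold change of miR395-7-3p at 1 DAT was -4.25 (-7.64 to -0.87, FDR = 0.0944), and without replicate 3 of control at 1 DAT it was 1.54 (FDR = 0.759). Tags were selected on 10 or more RPM in some library, and the highest value of this tag lay in that control library. The selection thus favours a low heat value at 1 DAT, and the interval is no test of a heat effect on this tag. For miR395-41-3p the values were -0.07 (FDR = 0.981), -1.41 (FDR = 0.589) and 1.62 (FDR = 0.675) at 0, 1 and 4 DAT.

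**Figure D5:**
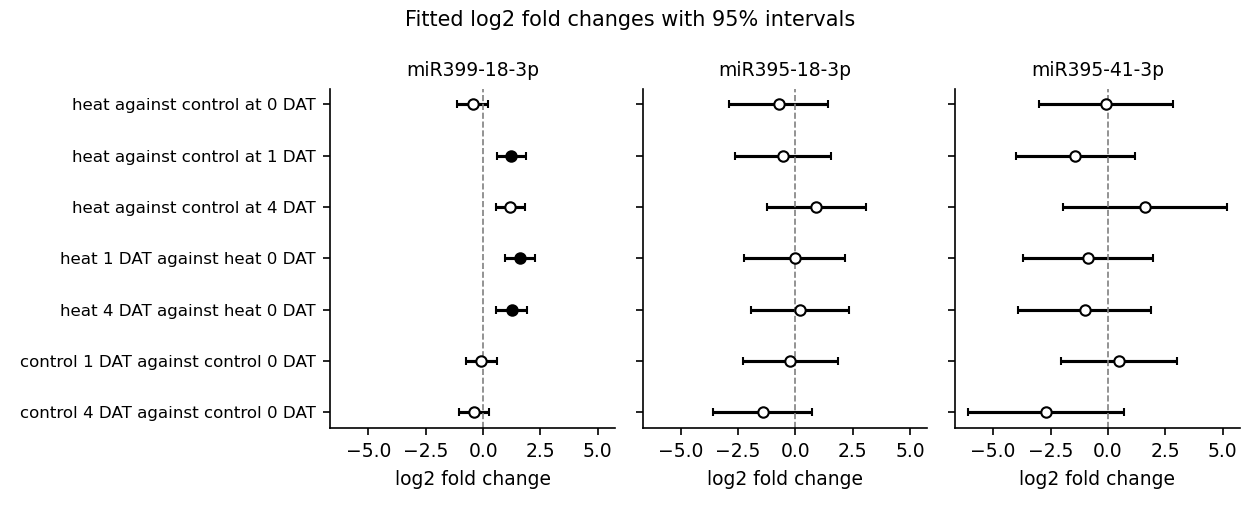
Fitted log2 fold changes (x axis) with 95% intervals for 7 comparisons (y axis), in a panel for each of miR399-18-3p, miR395-18-3p and miR395-41-3p, with filled points for FDR under 0.05. Filled points occur in the panel of miR399-18-3p only, at 1.23, 1.62 and 1.24, and the intervals of the miR395 tags are wider. Tag miR395-7-3p, with 28 reads, was left out of the plot.

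Summed over its 3 tags, miR395 had 680 reads, 84.4% from miR395-18-3p, 11.5% from miR395-41-3p and 4.12% from miR395-7-3p. The 2 shorter tags together made up 15.6% (95% Clopper-Pearson interval 12.9 to 18.5) of these reads, and 11.4% (64 of 561 reads) without replicate 3 of control at 1 DAT. No difference of their share between heat and control passed the test on any day. At 0 DAT it was 12.1% ± 14.5 (SD, n = 4) in heat and 14.2% ± 11.4 in control (exact two-sided permutation test, p = 0.743). At 1 DAT it was 13.2% ± 8.65 in heat and 13.8% ± 17.1 in the control libraries (p = 0.943 by the same exact test). At 4 DAT it was 7.54% ± 5.89 in heat and 2.27% ± 4.55 in control (exact p = 0.371). All 3 adjusted values were 0.943, and the smallest p that 4 against 4 libraries allow is 0.0286. These shares rest on few reads, and 2 of the control shares at 1 DAT, both 0%, came from libraries with 4 and 1 reads of miR395. With only the libraries of at least 10 reads, heat minus control was -18.4 percentage points at 1 DAT in place of -0.65 (exact p = 0.2). That left control replicates 2 and 3 (20% and 35.3%) and heat replicates 1, 2 and 3 (4.55%, 13.2% and 10%). These shares did not overlap, and 0.2 is the smallest p that so few libraries allow, so this test could not have passed. The share of control replicate 3 and the family sum at 1 DAT include its 22 reads of miR395-7-3p, a tag selected on its highest value. Left-out libraries moved the difference from -7.57 to 2.96 points at 0 DAT, from -5.26 to 6.51 at 1 DAT and from 3.02 to 7.78 at 4 DAT. In a fit of reads summed by family over the 37 families, the log2 fold changes of miR395 were -0.34 (FDR = 0.84), -0.96 (FDR = 0.666) and 1.01 (FDR = 0.723) at 0, 1 and 4 DAT. Left-out libraries moved them from -2.47 to 0.20, from -1.70 to 1.57 and from -0.39 to 1.95, so none of the 3 kept its sign.

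Across the 24 libraries miR395-18-3p and miR395-41-3p moved together, and miR399-18-3p had no such relation with miR395-18-3p. The correlation of log2 RPM was 0.85 between miR395-18-3p and miR395-41-3p (0.89 of the deviations from group means), 0.52 between miR395-18-3p and miR395-7-3p (0.62) and 0.01 between miR399-18-3p and miR395-18-3p (-0.14). The value for miR395-7-3p rests largely on replicate 3 of control at 1 DAT, which held 22 of its 28 reads, while 18 libraries held none. All these correlations are descriptions, since the libraries share plants and the tags of miR395 share precursors and library depth. The tags outside the family most like miR399-18-3p, among 121 with a mean count of at least 20, were miR319.7-1 (r = 0.63), miR528-1.b-5p (0.57), miR1136-591-3p (0.48), miR2020b-1 (0.45) and miR166-12.a-3p (0.42), with correlations within groups of 0.36, 0.05, -0.06, 0.50 and 0.04. The tags most like miR395-18-3p were miR1137-504-5p (0.61), miR393-10-3p (0.59), miR393-6-5p (0.58), miR528-1.3-3p (0.56) and miR1131-281-5p (0.52), and within groups the correlations were 0.58, 0.64, 0.62, 0.63 and 0.57. The tags were chosen by the correlation over all libraries, and miR395-18-3p varied widely within groups. Its correlations within groups are therefore tied to that choice and are no second finding. For 3 of the 5 tags most like miR399-18-3p the correlation within groups was near 0.

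Other families tied to mineral nutrition gave a point of comparison. The copper-responsive families miR398 and miR528, which lower copper proteins when copper is short, had 7 tags. At 0 DAT, 0 of them rose and 3 fell, where 8.91% of all tags rose and 8.42% fell (median log2 fold change -1.40, against -0.04 over all tags). At 1 DAT 2 rose and 0 fell, where 6.44% of all tags rose and 4.95% fell (0.98, against -0.12), and at 4 DAT none passed (0.90, against -0.06). The fall at 0 DAT was led by miR528-1.a-5p, with 13.4 RPM ± 9.38 in heat and 1012 RPM ± 508 in control (log2 fold change -6.21, FDR = 1.1e-08), while miR528-1.b-5p fell by 1.00, and miR528-1.3-3p fell by 1.67 against control at 0 DAT and rose by 1.60 against control at 1 DAT. The other tag that rose at 1 DAT was miR528-1.5-5p, with 70.2 RPM ± 68.8 in heat and 9.65 RPM ± 8.08 in control (2.80, FDR = 0.0341). All copper tags that passed were of miR528, and no tag of miR398 passed on any day. The study traced the isomiRs of miR528 to a single precursor. The counts of this list thus describe miR528 and not both families. The families miR167, miR169 and miR393, whose members respond to nitrogen supply in Arabidopsis, had 20 tags, of which 2 rose and 0 fell at 0 DAT, 0 rose and 1 fell at 1 DAT and none passed at 4 DAT, shares near or below those of all tags given above for the first 2 days and the same 0% at 4 DAT. The medians were 0.23, -0.24 and -0.21, against -0.04, -0.12 and -0.06 over all tags. The tags that passed were miR167-1-5p (1.80) and miR169-35-3p (2.42) at 0 DAT and miR169-43.a-3p (-2.07) at 1 DAT.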

How the data were processed

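The authors prepared small RNA libraries of leaf RNA, cut off adapters, selected read lengths of 18 to 24 nt, discarded RNA of chloroplasts and of other non-coding classes, and annotated tags with 10 or more RPM in some library, a limit set before annotation, that matched a precursor of IWGSC RefSeq v1.0 without mismatch. Per the submitters' processing notes, FastQC and Bowtie2 were used, their versions being not given in the sources used here. What was deposited are whole read counts by tag and library, without normalization, in which nested tags stand apart. Reads carry no molecular identifiers.

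RPM values were computed from TMM-normalized counts. Comparisons used edgeR's quasi-likelihood test (edgeR 4.0.16, R 4.3.3) with 1 model for the 6 groups, no filter and Benjamini-Hochberg adjustment over all tags. Alternatives were DESeq2 1.42.0, other scalings, other fits and left-out libraries. Shares were compared with exact permutation tests (scipy 1.17.1), log2 RPM used a prior count of 2, and precursors were refolded with RNAfold 2.7.2. Precursor and site sequences are those of the study's supplementary tables.

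Within a treatment, libraries with the same replicate number share their plants. Their deviations from group means correlated with r of -0.00215 to 0.443 in control and -0.163 to 0.396 in heat between 0 and 1 DAT. Between 0 and 4 DAT r was -0.369 to 0.154 in control and -0.240 to 0.0596 in heat. Between 1 and 4 DAT it was -0.534 to -0.121 in control and -0.546 to 0.0613 in heat. Between heat and control, the deviations of same-numbered libraries correlated with r of 0.240 to 0.566 at 1 DAT, each above 0.1, and with -0.119 to 0.262 at 0 DAT and -0.169 to 0.538 at 4 DAT.

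Named tags were all 4 members, the 5 tags most like miR399-18-3p and miR395-18-3p, and tags of the copper and nitrogen lists with FDR below 0.05. Members and lists were chosen with earlier results of these data known, so the tests are no independent support for a pattern. Group medians, and the fit without replicate 4 of control at 1 DAT, were singled out after seeing the data.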

Additional observations from a re-analysis of the deposited data

Results flagged for a closer look

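In groups of 4, a library was set apart where its gap to the nearest of the others made up more of the group's range than Dixon's 95% critical value. This held for 12 of the 24 combinations of member and group. The rule sets apart about 1 in 20 of normally distributed groups, a distribution that low counts do not follow. Of the 12, 6 came from miR395-7-3p, whose reads in each group were all in 1 library, as were those of miR395-41-3p in control at 4 DAT. Such groups meet the rule by construction, so the count does not measure an excess over chance.

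For miR399-18-3p these were replicate 3 of control at 0 DAT (422 RPM) and replicate 4 of control at 1 DAT (459 RPM). For miR395-18-3p it was replicate 3 of control at 1 DAT (753 RPM). The same library stood apart with 196 RPM of miR395-41-3p and 215 RPM of miR395-7-3p. For miR395-41-3p, replicate 3 of control at 0 DAT (151 RPM) and replicate 4 of control at 4 DAT (14.96 RPM, from 3 reads) also stood apart. The other values of miR395-7-3p rest on 1 or 2 reads, with 6.39 RPM in replicate 2 of control at 0 DAT, 9.08 RPM in replicate 2 of heat at 0 DAT, 7.99 RPM in replicate 4 of heat at 1 DAT, 4.99 RPM in replicate 4 of control at 4 DAT and 7.51 RPM in replicate 4 of heat at 4 DAT.

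The heat effect on miR399-18-3p differed between 0 and 1 DAT by 1.69 on the log2 scale (interaction, edgeR's quasi-likelihood test, FDR = 0.0492), a call that was lost with the plant pool as a block (FDR = 0.0969).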

How the results depend on the processing

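No result changed sign past the threshold under any alternative. For miR399-18-3p at 1 DAT, heat against control kept its call in 12 of 16 alternatives. The fit of the groups compared gave 1.27, and left-out libraries 1.02 to 1.69. At 4 DAT the call was gained with depth from all reads (1.47), the likelihood ratio test (1.19), DESeq2 (1.23) and the groups compared (1.27), and in 0 of 8 fits without 1 library (1.11 to 1.35). From 0 to 4 DAT in heat, library totals gave 0.82 and left-out libraries 1.17 to 1.35. The interaction from 0 to 1 DAT was past the threshold in 8 of 24 alternatives, with 1.63 for DESeq2 size factors and for library totals, 1.73 for the groups compared and for the plant pools as a replicate block, and 1.44 to 2.14 for left-out libraries. From 0 to 4 DAT the change gained a call with depth from all reads (1.83), the likelihood ratio test (1.63), DESeq2 (1.62) and the groups compared (1.63), and left-out libraries gave 1.39 to 1.80. The cause of these differences was not tested.

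The replicate block changed no other call of the 4 tags. In the interaction, 5 tags passed from 0 to 1 DAT and 2 from 0 to 4 DAT without the block, and 1 and 1 with it. At 1 DAT, 23 tags passed in heat against control, 5 with library totals and 1 with the groups compared. At 4 DAT, 0 tags passed, and 3, 3, 4 and 1 with depth from all reads, the likelihood ratio test, DESeq2 and the groups compared. From 0 to 1 DAT in heat, 4 passed, and 9, 9 and 7 with the first 3 of these. From 0 to 4 DAT in heat, 11 passed, 19 with DESeq2 and 18 with the groups compared. From 1 to 4 DAT in heat, 0 passed, 5 with the likelihood ratio test and 3 with DESeq2. For the interaction from 0 to 1 DAT the counts were 3 with DESeq2 size factors, 1 with library totals, 9 with the likelihood ratio test, 8 with a filter on low counts, 8 with DESeq2 and 2 with the groups compared. For that from 0 to 4 DAT they were 1 with library totals, 4 with depth from all reads, 7 with the likelihood ratio test, 7 with DESeq2 and 4 with the groups compared.

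Without single libraries, heat against control called 22 to 35 tags at 0 DAT (35 with all libraries, 22 without replicate 3 of heat), 1 to 25 at 1 DAT and 0 to 2 at 4 DAT (2 without replicate 2 of heat), heat from 0 to 1 DAT 2 to 6 (2 without replicate 2 or 4 of heat at 0 DAT or replicate 4 at 1 DAT), and the 2 interactions 1 to 6 and 1 to 3.

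Depth from all reads moved the median of all tags to 0.18 at 1 DAT and 0.23 at 4 DAT, against -0.12 and -0.06. The filter on low counts left 194 tags and 2 of the 4 members, so the 2 shorter tags of miR395 have no value under it. Those tags lie near or below what 3 reads stand for in most libraries, and most of their groups hold few reads, while miR395-18-3p is limited by the spread between libraries.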
